A study of Homo sapiens with 3 samples.

Results

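The 10 genes of the MYC network described here are MYC, MYCN, MYCL, MAX, MXI1, MXD1, MXD3, MXD4, MNT and MGA, chosen by gene name from the 58735 genes listed in the deposited tables. All 10 were found, and 9 reached 1 CPM (counts per 1000000 counts of the library) in at least 1 library; MYCN did not. The values come from RNA sequencing of 3 established human prostate cancer cell lines with 1 library each. PC3, a line first derived from a bone metastasis, and DU145, from a brain metastasis, form the castration-resistant class in the series design, and LNCAP, from a lymph node metastasis, forms the androgen-dependent class. No line was labelled as treated or genetically altered, and all were grown under one stated set of culture conditions in medium with 10% fetal bovine serum; the labels name 3 kinds of medium together and do not tie each to a line.

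MYC, MYCN and MYCL encode related transcription factors that bind DNA only as partners of MAX. The MYC-MAX dimer binds the E-box, whose core letters are CACGTG, and raises transcription of genes for ribosome production, metabolism and cell division. MXI1, MXD1, MXD3, MXD4, MNT and MGA also pair with MAX, bind the same motif and mostly repress, the MXD proteins and MNT through the SIN3 and histone deacetylase corepressors and MGA as part of a variant Polycomb complex. MYC lies in a region of its chromosome that is often gained in prostate cancer, and the balance between MYC and its antagonists is commonly described in terms of their competition for MAX.

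The libraries held 15319045 counts in PC3, 15878546 in DU145 and 15393103 in LNCAP. Levels are given as CPM after scaling by edgeR's trimmed mean of M-values, or as the deposited FPKM (the count per length of the gene and size of the library) where genes of different length are compared. With 1 library per line no p-value was computed for a difference between 2 lines. Each ratio of normalised counts carries an exact 95% binomial interval that covers counting error only, and a gene was called when it differed by at least 2-fold with an interval that excluded 1. The reads carried no stated molecular identifiers and may include several copies of 1 molecule, so these intervals leave out amplification as well as variation between cultures. In such bulk RNA, fewer expressing cells and less RNA per cell cannot be told apart. Markers of luminal prostate cells differed widely between the lines. KLK3, which encodes prostate-specific antigen, had no counts in PC3 or DU145, against 2271 CPM in LNCAP. TMPRSS2 measured 8.5 CPM in PC3 and 0 in DU145, against 778 CPM in LNCAP. HOXB13 measured 387 CPM in PC3 and 0 in DU145, against 329 CPM in LNCAP. The epithelial keratins KRT8 (258, 1041 and 445 CPM in PC3, DU145 and LNCAP) and KRT18 (189.5, 497 and 232 CPM) were present in every line, and EPCAM, an epithelial adhesion molecule, was low in PC3, with 7.52, 69.7 and 61.7 CPM in PC3, DU145 and LNCAP (8.20-fold lower in PC3 than in LNCAP, interval 6.75 to 10.0). The 8 markers of blood, endothelial, fibroblast and muscle cells summed to 37.6, 2.49 and 12.3 CPM in PC3, DU145 and LNCAP, with 3, 5 and 3 of the 8 at 0. The highest of them in PC3 were PECAM1 (20.1 CPM) and COL3A1 (15.6 CPM). In LNCAP the highest was VWF (9.21 CPM), which had 1 count in PC3 and 0 in DU145. The part of these differences between the lines in the results below was not tested.

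MYC (ENSG00000136997, chromosome 8, 127735434 to 127741434, plus strand, GRCh38) was the most abundant network gene per length in every library. Its level was 100.8 FPKM in PC3, 36.0 FPKM in DU145 and 86.8 FPKM in LNCAP, which placed it at percentile 98.4, 93.3 and 98.1 among the 18025 genes tested. In normalised counts it measured 305 CPM in PC3, 108 CPM in DU145 and 265 CPM in LNCAP. The 2 castration-resistant lines thus lay on either side of LNCAP, with DU145 far below the other two libraries. MYC was 1.15-fold higher in PC3 than in LNCAP (95% interval 1.10 to 1.20), a difference past counting error and below the 2-fold threshold. It was 2.46-fold lower in DU145 than in LNCAP (interval 2.32 to 2.60) and 2.82-fold higher in PC3 than in DU145 (interval 2.67 to 2.98).

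MYCN (ENSG00000134323, chromosome 2, 15940564 to 15947007, plus strand), the family member known from neuroblastoma and from neuroendocrine prostate cancer, had 0 counts in PC3, DU145 and LNCAP. A count of 0 allows at most 0.196, 0.189 and 0.195 CPM in these libraries, taking 3 counts as the limit. MYCL (ENSG00000116990, chromosome 1, 39895426 to 39902256, minus strand), first described in small cell lung cancer, was low in every line, with 35 counts in PC3, 65 in DU145 and 169 in LNCAP. These correspond to levels of 0.449, 0.818 and 2.1 FPKM, so MYCL was a small addition to MYC in each line. MYCL was 4.72-fold lower in PC3 than in LNCAP (interval 3.27 to 7.0) and 2.61-fold lower in DU145 than in LNCAP (interval 1.95 to 3.52). PC3 was also below DU145, by 1.81-fold (interval 1.18 to 2.82), which did not reach a call. The processed pseudogene MYCLP1 held 0, 4 and 0 counts in PC3, DU145 and LNCAP; how the counting treated reads that match both copies is not given.

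MAX (ENSG00000125952, chromosome 14, 65006174 to 65102695, minus strand), the shared partner of the other members, stood out in PC3. It measured 129 CPM in PC3, 47.0 CPM in DU145 and 49.4 CPM in LNCAP. PC3 was high, and DU145 and LNCAP lay close together. MAX was 2.60-fold higher in PC3 than in LNCAP (interval 2.39 to 2.83) and 2.73-fold higher in PC3 than in DU145 (interval 2.51 to 2.98). The ratio of DU145 to LNCAP was 0.951 with an interval of 0.859 to 1.05, so these lines did not differ beyond counting error. FNTB, which encodes a farnesyltransferase subunit, lies across MAX on the opposite strand over 56479 bases with no exon base in common, and it measured 27.8, 8.62 and 7.23 CPM in PC3, DU145 and LNCAP. The antisense gene AL139022.1, which shares 184 exon bases with MAX, held only 18, 12 and 13 counts in the same order of lines.

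**Figure D1:**
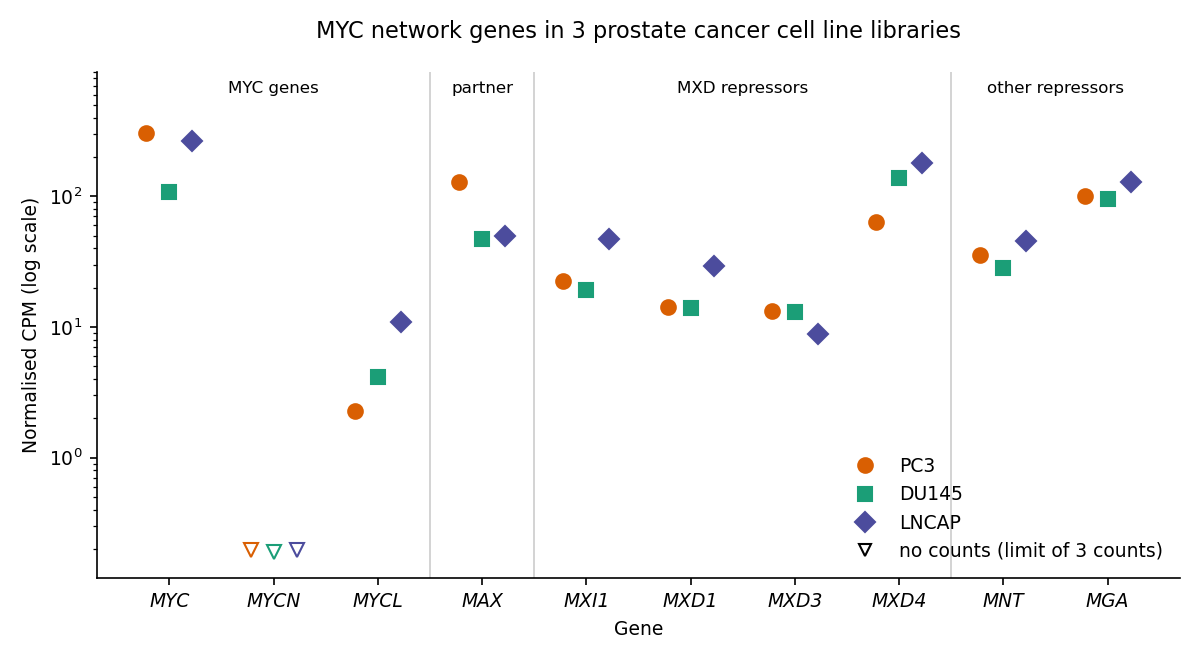
Normalised CPM (log axis) of the 10 network genes in the PC3, DU145 and LNCAP libraries, 1 point per library; open triangles mark a gene without counts at the limit of 3 counts. MYC is lowest in DU145 (108 CPM), MAX is highest in PC3 (129 CPM) and MXD4 is lowest in PC3 (63.9 CPM).

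Among the MXD repressors, MXD4 was the most abundant and the most divergent. MXD4 (ENSG00000123933, chromosome 4, 2247432 to 2262294, minus strand) measured 63.9 CPM in PC3, 138 CPM in DU145 and 179 CPM in LNCAP. PC3 was the low library, at 2.80-fold below LNCAP (interval 2.61 to 3.02) and 2.16-fold below DU145 (interval 2.0 to 2.33). DU145 lay 1.30-fold below LNCAP (interval 1.23 to 1.37), which was not a call. MXI1, also called MXD2, (ENSG00000119950, chromosome 10, 110207605 to 110287365, plus strand) measured 22.6 CPM in PC3, 19.0 CPM in DU145 and 47.1 CPM in LNCAP. Both castration-resistant lines were low, with MXI1 2.08-fold lower in PC3 than in LNCAP (interval 1.83 to 2.37) and 2.48-fold lower in DU145 than in LNCAP (interval 2.16 to 2.84). Between PC3 and DU145 the MXI1 ratio was 1.19 (interval 1.02 to 1.39).

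MXD1 (ENSG00000059728, chromosome 2, 69897688 to 69942945, plus strand), the original MAD protein linked to differentiation, measured 14.1 CPM in PC3, 13.9 CPM in DU145 and 29 CPM in LNCAP. The castration-resistant lines were again the low ones, at 2.06-fold below LNCAP in PC3 (interval 1.74 to 2.43) and 2.09-fold below LNCAP in DU145 (interval 1.77 to 2.46), and PC3 and DU145 did not differ beyond counting error, at a ratio of 1.02 (interval 0.838 to 1.23). MXD1 shares 237 exon bases with SNRNP27 on the same strand, and SNRNP27 ran the other way, at 21.5, 23.2 and 13.7 CPM in PC3, DU145 and LNCAP. MXD3 (ENSG00000213347, chromosome 5, 177301461 to 177312757, minus strand), the MXD gene associated with dividing cells, was the one repressor with its lowest level in LNCAP. It measured 13.3 CPM in PC3, 13.1 CPM in DU145 and 8.89 CPM in LNCAP, giving 1.5-fold higher in PC3 than in LNCAP (interval 1.20 to 1.88) and 1.47-fold higher in DU145 than in LNCAP (interval 1.18 to 1.84), neither a call. The PC3 to DU145 ratio of MXD3 was 1.02 (interval 0.836 to 1.24). Of the 5154 exon bases of MXD3, 926 are shared with RAB24 on the same strand and 1158 with PRELID1 on the opposite strand, and PRELID1 held 2053, 1674 and 1873 counts in PC3, DU145 and LNCAP against 204, 205 and 139 for MXD3. The strand setting of the counting is not given, so the MXD3 values are uncertain.

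The other repressors, MNT and MGA, were called in no comparison. MNT (ENSG00000070444, chromosome 17, 2384060 to 2401118, minus strand), the broadly expressed MYC antagonist, measured 35.2 CPM in PC3, 28.0 CPM in DU145 and 45.3 CPM in LNCAP. The lines differed past counting error and under 2-fold: MNT was 1.29-fold lower in PC3 than in LNCAP (interval 1.15 to 1.44), 1.62-fold lower in DU145 than in LNCAP (interval 1.43 to 1.83) and 1.26-fold higher in PC3 than in DU145 (interval 1.11 to 1.43). MGA (ENSG00000174197, chromosome 15, 41621224 to 41773081, plus strand), a very large protein that also carries a T-box domain, measured 99.97 CPM in PC3, 95.3 CPM in DU145 and 129 CPM in LNCAP. MGA was 1.29-fold lower in PC3 than in LNCAP (interval 1.20 to 1.38) and 1.35-fold lower in DU145 than in LNCAP (interval 1.26 to 1.44). PC3 and DU145 had MGA levels within counting error of each other, at a ratio of 1.05 (interval 0.976 to 1.13).

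Across the network, 1 of the 9 tested members was called higher in PC3 than in LNCAP (MAX), where 22.6% of all tested genes were called higher, and 4 were called lower (MYCL, MXD4, MXI1 and MXD1), where 23.6% were called lower. The MXD1 call was lost when the deposited FPKM with 0.1 added was used, which left 3 called lower. In DU145 against LNCAP no member was called higher, where 22.9% of all tested genes were, and 4 were called lower (MYC, MYCL, MXI1 and MXD1), where 23.1% were. In PC3 against DU145 the members called were MYC and MAX as higher, beside 18.5% of all tested genes, and MXD4 as lower, beside 19.3%. The median log2 ratio of the tested members was -0.36 in PC3 against LNCAP and -0.69 in DU145 against LNCAP, beside -0.01 and -0.003 over all tested genes. The median range over the 3 libraries was 1.31 on the log2 scale for the members, below the 1.49 of all tested genes. Both comparisons with LNCAP use the same LNCAP library, so MYCL, MXI1 and MXD1 being low in both is not 2 independent observations.

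**Figure D2:**
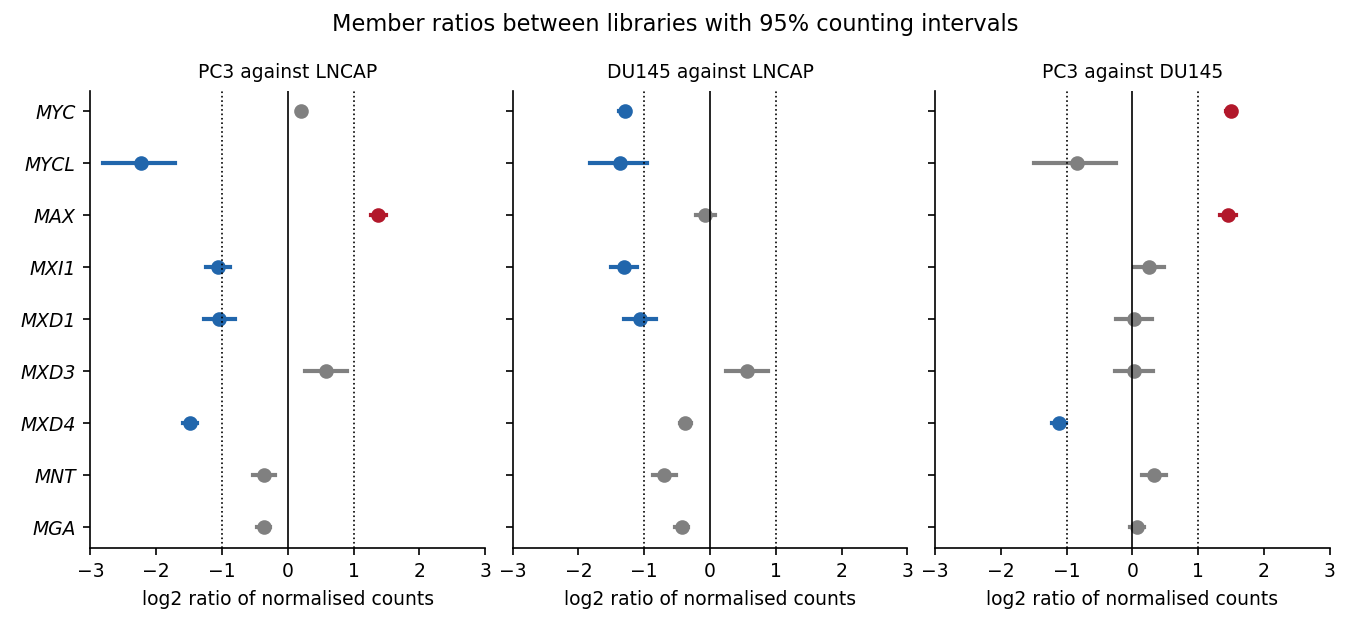
Log2 ratios of normalised counts for the 9 tested network genes in PC3 against LNCAP, DU145 against LNCAP and PC3 against DU145, with exact 95% counting intervals as bars and dotted lines at a 2-fold difference; red marks called higher, blue called lower and grey not called. MAX is red in both comparisons of PC3, while MYC is blue in DU145 against LNCAP and red in PC3 against DU145.

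The 2 castration-resistant lines were also tested together against LNCAP with edgeR's quasi-likelihood test, which had 1 residual degree of freedom. It called 0 of 18025 genes (0%) at an adjusted p under 0.05, with 1746 genes at an unadjusted p under 0.05. DESeq2 called 1306 genes, or 7.25% of the same 18025, of which 3146 were given no adjusted p by DESeq2. No member was called by either tool, and none had an unadjusted p under 0.05 with either. The lowest edgeR adjusted p among the members was that of MXI1, at 0.624 for a log2 difference of -1.18. For MYC, which lay above LNCAP in PC3 and below it in DU145, edgeR gave a log2 difference of -0.36 and an adjusted p of 0.914.

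The make-up of the network within each library was compared in FPKM. MYC made up 63.7% of the summed FPKM of the 10 genes in PC3, 42.6% in DU145 and 56.6% in LNCAP. MAX made up 18.2%, 12.6% and 7.15%, and MXD4 5.67%, 23.1% and 16.3%, in PC3, DU145 and LNCAP. In PC3 the order by FPKM was MYC, MAX, then MXD4, whereas in DU145 and LNCAP MXD4 came next after MYC, ahead of MAX. The 10 genes summed to 158 FPKM in PC3, 84.4 FPKM in DU145 and 153 FPKM in LNCAP.

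The ratio of MYC to MAX in FPKM was 3.5 in PC3 (interval 3.32 to 3.69) and 3.39 in DU145 (interval 3.11 to 3.70), against 7.92 in LNCAP (interval 7.33 to 8.56). PC3 and DU145 thus had overlapping intervals at very different absolute levels of both genes, and LNCAP stood apart. The ratio of MXD4 to MAX in FPKM was 0.312 in PC3 (interval 0.288 to 0.337) and 1.84 in DU145 (interval 1.69 to 2.0), against 2.27 in LNCAP (interval 2.1 to 2.46). MXD4 was thus below MAX in PC3 and above it in the other two lines. The ratio of MYC to the summed FPKM of MXD1, MXI1, MXD3 and MXD4 was 5.41 in PC3 and 1.27 in DU145, against 2.11 in LNCAP. With MNT as the antagonist the FPKM ratio was 25.2 in PC3 (interval 23.0 to 27.6) and 11.2 in DU145 (interval 10.1 to 12.5), against 17.0 in LNCAP (interval 15.7 to 18.5), and with MGA it was 17.9 in PC3 and 6.67 in DU145, against 12.1 in LNCAP. PC3 was highest and DU145 lowest for the summed MXD genes, MNT and MGA. All of these ratios have MYC as numerator, which by itself was highest in PC3 and lowest in DU145. Ratios of MYC to MXD1, MXI1 or MXD3 alone were not computed. MXI1 was at 4.88, 4.12 and 10.0 FPKM and MXD3 at 2.57, 2.54 and 1.69 FPKM in PC3, DU145 and LNCAP.

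**Figure D3:**
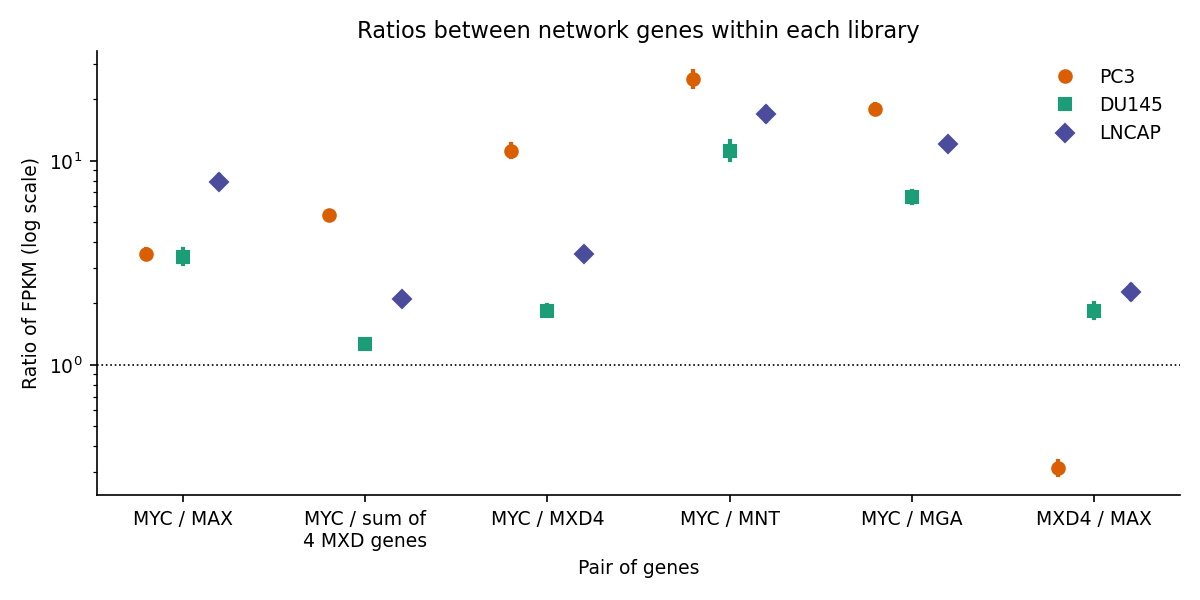
Ratios of deposited FPKM (log axis) between network genes within the PC3, DU145 and LNCAP libraries, with 95% counting intervals where 2 single genes are compared; the dotted line marks equal FPKM. MYC over the 4 MXD genes is 5.41 in PC3, 1.27 in DU145 and 2.11 in LNCAP, while MYC over MAX is 3.5, 3.39 and 7.92.

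The 5 genes whose pattern over the 3 libraries was nearest to that of MYC were POLM, ABHD10, PPIF, NFRKB and APPL2, by the Euclidean distance of centred log2 CPM among 10172 protein-coding genes with a mean of at least 10 CPM. Their distances ran from 0.038 for POLM to 0.052 for APPL2, and 456 genes lay within 0.5. POLM, a DNA polymerase of end joining, measured 34.8 CPM in PC3, 12.1 CPM in DU145 and 29.2 CPM in LNCAP. PPIF, the mitochondrial cyclophilin, measured 286 CPM in PC3, 105 CPM in DU145 and 259 CPM in LNCAP. A likeness over 3 libraries is a description only.

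The MLX arm is a parallel branch in which MLX, in the place of MAX, pairs with the nutrient-responsive factors MLXIP (MondoA) and MLXIPL (ChREBP) and with some MXD proteins. All 3 genes were called lower in PC3 than in LNCAP. In DU145 against LNCAP, MLXIP was called lower and MLXIPL higher. Of all tested genes, 23.6% were called lower in PC3 than in LNCAP, and 23.1% lower and 22.9% higher in DU145 than in LNCAP. MLX measured 32.4 CPM in PC3 and 53.0 CPM in DU145, against 88.2 CPM in LNCAP, 2.72-fold lower in PC3 than in LNCAP (interval 2.46 to 3.02). MLXIP measured 113 CPM in PC3 and 97.8 CPM in DU145, against 227 CPM in LNCAP. It was 2.01-fold lower in PC3 than in LNCAP (interval 1.90 to 2.13), just past the 2-fold threshold. In DU145 it was 2.32-fold lower than in LNCAP (interval 2.19 to 2.47). MLXIPL was scarce, with 4 counts in PC3 and 158 in DU145, against 67 in LNCAP, 16.4-fold lower in PC3 than in LNCAP (interval 6.11 to 61.9) and 2.35-fold higher in DU145 than in LNCAP (interval 1.76 to 3.18). The MondoA targets TXNIP, an inhibitor of glucose uptake, and ARRDC4, a related arrestin, were called lower in both lines than in LNCAP. These calls stand beside the same 23.6% of all tested genes called lower in PC3 and 23.1% in DU145. TXNIP measured 54.4 CPM in PC3 and 3.0 CPM in DU145, against 119 CPM in LNCAP, and was thus 39.6-fold lower in DU145 than in LNCAP (interval 29.7 to 54.1) and 2.18-fold lower in PC3 than in LNCAP (interval 2.01 to 2.37). ARRDC4 measured 6.54 CPM in PC3 and 3.19 CPM in DU145, against 30.1 CPM in LNCAP.

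Of 11 genes for corepressors that MXD proteins recruit, 1 was called higher in PC3 than in LNCAP and none lower, and none was called higher and 1 lower in DU145 than in LNCAP. Of all tested genes, 22.6% and 22.9% were called higher and 23.6% and 23.1% lower, and their median absolute log2 ratios were 0.96 and 0.94, beside 0.49 and 0.50 for this list. SAP30, a subunit of the SIN3 complex, measured 17.7 CPM in PC3 and 9.0 CPM in DU145, against 4.73 CPM in LNCAP, 3.75-fold higher in PC3 than in LNCAP (interval 2.89 to 4.91). NCOR1, the nuclear receptor corepressor, measured 197 CPM in PC3 and 100.5 CPM in DU145, against 356 CPM in LNCAP, 3.54-fold lower in DU145 than in LNCAP (interval 3.35 to 3.75). The median log2 ratio of the 11 was -0.23 in PC3 and -0.43 in DU145 against LNCAP.

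Among 14 genes for MYC cofactors, 2 were called higher and 1 lower in PC3 than in LNCAP, and 2 higher and none lower in DU145 than in LNCAP. Of all tested genes, 22.6% were called higher and 23.6% lower in PC3, and 22.9% higher and 23.1% lower in DU145. The median absolute log2 ratios of the list were 0.45 in PC3 and 0.31 in DU145 against LNCAP, beside 0.96 and 0.94 over all tested genes. The acetyltransferase gene KAT2A had 0 counts in PC3, against 1945 in DU145 and 2186 in LNCAP, which makes it at least 712-fold lower in PC3 than in LNCAP and at least 632-fold lower in PC3 than in DU145, taking 3 counts in the PC3 library as the limit. ZBTB17, whose product MIZ1 pairs with MYC in repression, measured 35.5 CPM in PC3 and 32.4 CPM in DU145, against 16.1 CPM in LNCAP, 2.20-fold and 2.01-fold higher than in LNCAP. EP400, a chromatin remodeller of the TIP60 complex, was 2.09-fold higher in PC3 than in LNCAP (interval 1.98 to 2.22), and PAF1, an elongation factor, was 2.01-fold higher in DU145 than in LNCAP (interval 1.85 to 2.19).

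Of 14 genes for proteins that control the stability of MYC protein, 4 were called higher in PC3 than in LNCAP, 3 in DU145 than in LNCAP, and none was called lower in either. Over all tested genes 22.6% and 22.9% were called higher in PC3 and in DU145 than in LNCAP, so the shares called higher on this list were near the background, and 23.6% and 23.1% were called lower. The median log2 ratio of these 14 was 0.69 in PC3 and 0.54 in DU145 against LNCAP, beside -0.01 and -0.003 over all tested genes. The list was not split into proteins that stabilise MYC and proteins that promote its breakdown. These medians therefore give no direction for MYC stability. AURKA, a mitotic kinase that shields MYC proteins from degradation, measured 145 CPM in PC3 and 178 CPM in DU145, against 43.2 CPM in LNCAP, 3.35-fold (interval 3.07 to 3.66) and 4.11-fold higher (interval 3.78 to 4.48). PIM1, a kinase that phosphorylates MYC, measured 48.3 CPM in PC3 and 37.8 CPM in DU145, against 14.1 CPM in LNCAP. USP36, a nucleolar deubiquitinase, measured 162 CPM in PC3 and 61.1 CPM in DU145, against 60.9 CPM in LNCAP, and CIP2A, an inhibitor of the phosphatase PP2A, was 2.53-fold higher in PC3 than in LNCAP (interval 2.26 to 2.84). AXIN1, also called higher in DU145 than in LNCAP, was 2.06-fold higher there (interval 1.86 to 2.29). No protein was measured.

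Among 10 partners of MGA in its Polycomb complex, 3 were called higher in PC3 than in LNCAP, 4 in DU145 than in LNCAP, and none lower in either, beside 22.6% and 22.9% of all tested genes called higher and 23.6% and 23.1% called lower. RING1, a ubiquitin ligase subunit, measured 44.3 CPM in PC3 and 70.1 CPM in DU145, against 24.0 CPM in LNCAP, 2.92-fold higher in DU145 than in LNCAP (interval 2.60 to 3.30). TFDP1, the dimer partner of E2F proteins, measured 165 CPM in PC3 and 212 CPM in DU145, against 79.3 CPM in LNCAP. PCGF6, the subunit that defines this complex, measured 16.7 CPM in PC3 and 26.5 CPM in DU145, against 9.98 CPM in LNCAP. YAF2 was 2.58-fold higher in PC3 than in LNCAP (interval 2.14 to 3.13).

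Of 30 genes known as activated by MYC, 29 were tested; CCND2 stayed under 1 CPM. In PC3 against LNCAP 4 were called higher and 2 lower, in DU145 against LNCAP 3 higher and 4 lower, and in PC3 against DU145 4 higher and 2 lower. Of all tested genes, 22.6%, 22.9% and 18.5% were called higher and 23.6%, 23.1% and 19.3% lower in these comparisons. The median absolute log2 ratios of the 29 genes were 0.51, 0.65 and 0.39, beside 0.96, 0.94 and 0.78 over all tested genes. With sign, the median log2 ratios of the 29 genes were 0.28, -0.15 and 0.14 in these comparisons, beside -0.01, -0.003 and 0.02 over all tested genes. The members moved unlike one another. SLC7A5, a transporter of large amino acids, measured 643 CPM in PC3 and 842 CPM in DU145, against 7.04 CPM in LNCAP, 91.4-fold (interval 75.7 to 111) and 119.7-fold higher (interval 99.2 to 146). TERT, the catalytic subunit of telomerase, was 4.06-fold higher in DU145 than in LNCAP (interval 2.92 to 5.73). The mitochondrial chaperonin genes HSPD1 and HSPE1, which share a promoter, were called lower in both lines, HSPD1 measuring 455 CPM in PC3 and 490.1 CPM in DU145, against 1246 CPM in LNCAP. HSPE1 measured 31.4 CPM in PC3 and 33.5 CPM in DU145, against 80.9 CPM in LNCAP.

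Between PC3 and DU145, the pair with the largest MYC difference, the activated genes called higher in PC3 were ODC1, RRP9, SRM and BOP1, and TERT was among those called lower. RRP9, SRM and BOP1 were named after their values were seen. ODC1, the rate-limiting enzyme of polyamine synthesis, measured 1323 CPM in PC3 and 252 CPM in DU145, with 467 CPM in LNCAP, and was 5.25-fold higher in PC3 than in DU145 (interval 5.08 to 5.44). SRM, spermidine synthase in the same pathway, measured 299.7 CPM in PC3 and 106 CPM in DU145, with 246 CPM in LNCAP, and was 2.82-fold higher in PC3 than in DU145 (interval 2.67 to 2.99). RRP9, a ribosomal RNA processing factor, measured 70.9 CPM in PC3 and 22.6 CPM in DU145, with 54.3 CPM in LNCAP, and was 3.14-fold higher in PC3 than in DU145 (interval 2.78 to 3.55). BOP1, another ribosome assembly factor, measured 277 CPM in PC3 and 121 CPM in DU145, with 145 CPM in LNCAP. It was 2.29-fold higher in PC3 than in DU145 (interval 2.17 to 2.42). ODC1, SRM, RRP9 and BOP1 had the order of lines seen for MYC. They were picked as called higher in PC3 than in DU145, so that part of the order was fixed by the choice. Between these lines 23 of the 29 tested genes were not called.

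Of 12 genes known as repressed by MYC, 11 were tested, and PDGFRB was not. Against LNCAP, 6 were called higher and 3 lower in PC3, and 3 higher and 3 lower in DU145, with median log2 ratios of 1.25 and 0.30, beside -0.01 and -0.003 over all tested genes. Of all tested genes, 22.6% were called higher and 23.6% lower in PC3, and 22.9% higher and 23.1% lower in DU145. TGFBR2, a TGF-beta receptor, measured 140.4 CPM in PC3 and 198 CPM in DU145, against 1.54 CPM in LNCAP, at 91.5-fold (interval 61.3 to 143) and 129-fold higher (interval 86.5 to 202). GADD45B, a stress-response gene, was 8.01-fold and 11.3-fold higher in PC3 and DU145 than in LNCAP. In the other direction, the cell cycle inhibitor gene CDKN1A measured 5.04 CPM in PC3 and 55.1 CPM in DU145, against 443 CPM in LNCAP, 87.9-fold (interval 70.2 to 111) and 8.04-fold lower (interval 7.49 to 8.64). CEBPA, a differentiation factor, measured 1.05 CPM in PC3 and 1.40 CPM in DU145, against 22.1 CPM in LNCAP, and NDRG1, a gene also induced by androgen, 129 CPM in PC3 and 57.9 CPM in DU145, against 585 CPM in LNCAP. In PC3 against DU145, 3 of the 11 were called higher and 2 lower, beside 18.5% and 19.3% of all tested genes. The median log2 ratio was -0.41, beside 0.02. Those higher in PC3 were GADD45A (6.44-fold), CDKN2B (5.32-fold) and NDRG1 (2.22-fold). Those lower were CDKN1A (10.9-fold) and CDKN1B (2.25-fold).

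**Figure D4:**
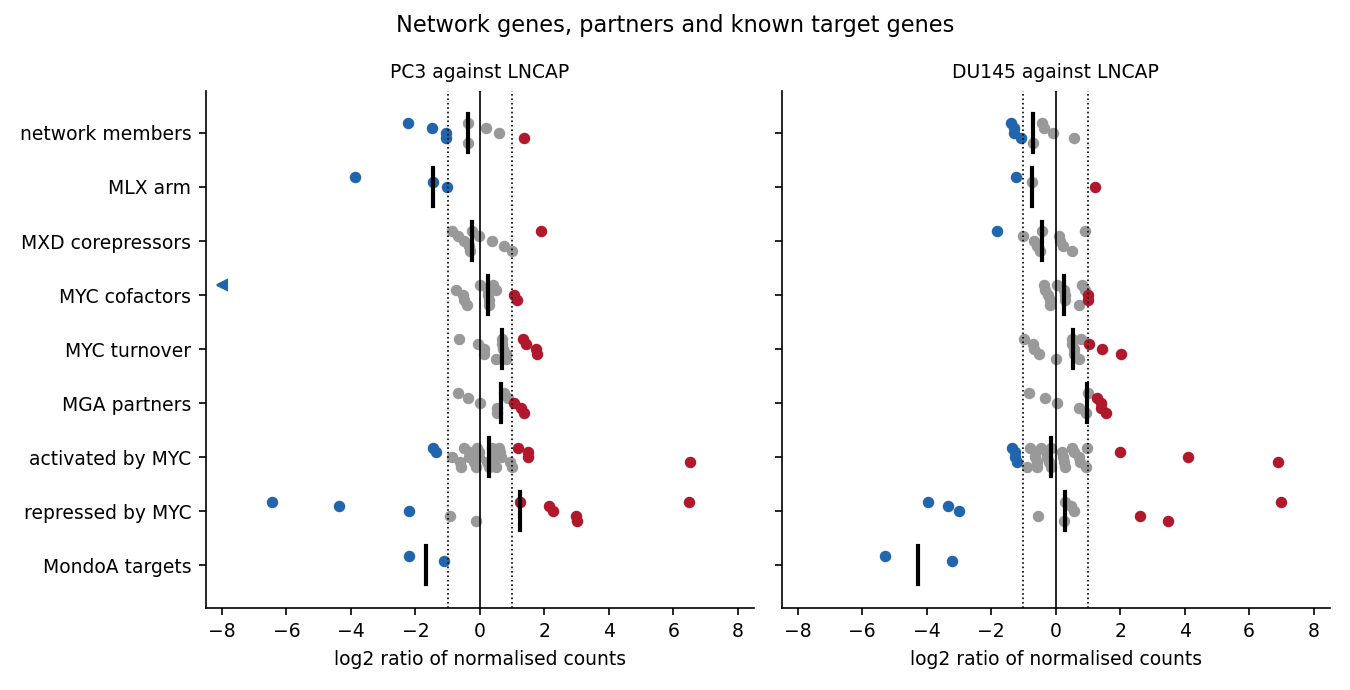
Log2 ratios of normalised counts for the network genes and 8 lists of partners and known targets in PC3 against LNCAP and DU145 against LNCAP, 1 point per tested gene, with the list's median as a black bar and dotted lines at a 2-fold difference; the marker at the left edge is KAT2A, without counts in PC3. MYC turnover genes have medians of 0.69 and 0.54, and genes activated by MYC spread on both sides of medians of 0.28 and -0.15.

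The E-box was looked for in RefSeq promoter sequences (GRCh38.p14) that run from 250 bases before to 50 after a gene's start. The motif CACGTG reads the same on both strands, and it occurred in 7.26% of 35116 promoters, or in at least 1 promoter of 8.78% of 27305 genes. Of the 9 network genes matched, which include MYCN, 2 held it, MXD4 and MNT. MYC had no entry among these promoters, so its promoter was not searched. Of 27 activated genes matched, 15 held it (55.6%), and 2 of 8 repressed genes did. A match is a description of the letters in this window. The windows below, with the motif in capitals, are those of the network genes that hold it and of some of the activated genes described above; each is read 5′ to 3′ on its gene's strand. MXD4 (chr4:2262322-2262359, minus strand, 238 bases before the RefSeq start) and MNT (chr17:2401228-2401273, minus strand, 193 bases before) are followed by ODC1 (chr2:10448016-10448061, minus strand, 29 bases before), SRM (chr1:11060192-11060237, minus strand, 199 bases before), RRP9 (chr3:51941884-51941929, minus strand, 5 bases before), SLC7A5 (chr16:87869612-87869657, minus strand, 130 bases before) and the site shared by HSPD1 and HSPE1 (chr2:197500337-197500382), printed on the plus strand of HSPE1.
MXD4: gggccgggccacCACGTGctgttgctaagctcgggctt
MNT: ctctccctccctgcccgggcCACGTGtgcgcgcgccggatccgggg
ODC1: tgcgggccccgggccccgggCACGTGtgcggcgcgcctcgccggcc
SRM: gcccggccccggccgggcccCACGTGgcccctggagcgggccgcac
RRP9: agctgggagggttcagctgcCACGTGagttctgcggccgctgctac
SLC7A5: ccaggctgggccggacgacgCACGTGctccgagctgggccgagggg
HSPE1: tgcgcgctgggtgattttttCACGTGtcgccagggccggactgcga
The genes with these windows were found both higher in PC3 than in DU145 (ODC1, SRM and RRP9) and not called between those lines (SLC7A5, HSPD1 and HSPE1), and MXD4 was lower in PC3 than in DU145. TERT, whose promoter also held the motif (163 bases before the start, sequence not shown), was 3.04-fold lower in PC3 than in DU145 (interval 2.26 to 4.14). ODC1 held a further copy of the motif within its first transcribed bases.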

How the data were processed

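The authors deposited, for each library, raw read counts per gene and FPKM values. FPKM is here a rescaling of the counts, by the length given for each gene (for the 10 members, the union of their exon bases) and a constant for each library. Per the submitters' processing notes, the tools were Cuffdiff 2.1.1 and Cufflinks 2.1.1, along with TopHat2 2.0.9 and Bowtie2 2.0.6, with no role stated. The build, the counting program and its treatment of strand are not given in the sources for this work. The start, end and strand of all 58735 gene identifiers equal those of GENCODE 29, so coordinates are on GRCh38.

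Counts were scaled by edgeR 4.0.16 (R 4.3.3) and genes under 1 CPM in all 3 libraries were dropped, which left 18025. Log2 ratios had 0.5 counts added per library, and 95% Clopper-Pearson intervals came from scipy 1.17.1. edgeR's quasi-likelihood test, with DESeq2 1.42.0 as the alternative, compared the castration-resistant lines with LNCAP, with Benjamini-Hochberg adjustment. The fitting was tested on simulated data. Other scalings, added counts, filters, FPKM and totals without mitochondrial genes were tried. Groups follow the cell line label. No label speaks of separate cultures, and the spread behind the edgeR and DESeq2 p-values is that between PC3 and DU145.

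All 10 members are named. From each gene list the 2 to 4 genes with the largest called ratios against LNCAP are named, with those against their list's majority; exceptions are stated. The members and lists were chosen with earlier results of these data known. Values of some genes on these lists are not reported here.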

Additional observations from a re-analysis of the deposited data

Results flagged for a closer look

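MYC differed in direction between the castration-resistant lines, being higher in PC3 than in LNCAP and lower in DU145 than in LNCAP. The log2 ratio of PC3 to LNCAP was 0.20 and that of DU145 to LNCAP was -1.30, which differ by 1.5. The PC3 side, at 1.15-fold, was not called, and its log2 ratio fell to 0.11 with upper quartile factors. The difference was not tested, since each line has 1 library, and both ratios use the same LNCAP library.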

How the results depend on the processing

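For each pair of lines 8 alternatives were computed: DESeq2 size factors, library totals alone, upper quartile factors, deposited FPKM with 0.1 added, 5 counts added, no filter, a 5 CPM filter and mitochondrial genes left out. The counts of members called stayed within 1.5 times the reported ones under all of them; with FPKM, 3 members in place of 4 were called lower in PC3 than in LNCAP, MXD1 being lost. Of 216 recomputed member ratios, 215 stayed inside their counting interval, and the exception was MYC in PC3 against LNCAP, at a log2 ratio of 0.11 with upper quartile factors. MXD1 in PC3 against DU145, which was not called, changed sign with the same factors, to -0.003. For the castration-resistant lines against LNCAP, edgeR called 0 genes with each scaling and filter tried, and DESeq2 called 1306; the cause was not tested. No paired analysis was possible because each line has 1 library. Leaving out a line was not run, since 1 library against 1 leaves no residual degrees of freedom. The totals limit MYCN, MYCL and MLXIPL, which had few or no counts.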

Other observations

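Not all genes that neighbour MYC on its chromosome shared its order of lines. Of 10 such genes found, 7 were tested. Of these, 3 were called higher and 1 lower in PC3 than in LNCAP, and 1 higher and 2 lower in DU145 than in LNCAP. Over all tested genes, 22.6% were called higher and 23.6% lower in PC3, and 22.9% higher and 23.1% lower in DU145. In PC3 against DU145, 3 of the 7 were called higher and 0 lower, beside 18.5% and 19.3% of all tested genes. The non-coding RNA gene PVT1 beside MYC measured 29.3 CPM in PC3 and 26.4 CPM in DU145, against 39.1 CPM in LNCAP, and was not called in any pair. TRIB1, a pseudokinase gene, measured 90.0 CPM in PC3 and 15.0 CPM in DU145, against 16.8 CPM in LNCAP, 5.35-fold higher in PC3 than in LNCAP (interval 4.68 to 6.12). TRIB1 thus had the order of lines seen for MYC, though DU145 and LNCAP did not differ beyond counting error (ratio 0.891, interval 0.744 to 1.07). FAM49B measured 188 CPM in PC3 and 98.3 CPM in DU145, against 42.3 CPM in LNCAP. The prostate cancer non-coding RNA PCAT1 measured 5.30 CPM in PC3 and 1.60 CPM in DU145, against 32.7 CPM in LNCAP, 6.17-fold (interval 4.87 to 7.90) and 20.5-fold lower (interval 13.7 to 32.0). CASC8 had 20 counts in PC3 and 1 in DU145, against 27 in LNCAP. PVT1 was named after its values were seen.

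Of the members, 9 carry the basic helix-loop-helix label in the deposited annotation, and MGA carries the T-box label. Of the 92 other genes with the helix-loop-helix label, 46 were tested. In PC3 against LNCAP 18 of these were called higher and 14 lower, in DU145 against LNCAP 13 and 13, and in PC3 against DU145 15 and 14. These are 69.6%, 56.5% and 63.0% of the 46 called in either direction. Over all tested genes 22.6% were called higher and 23.6% lower in PC3 against LNCAP, 22.9% and 23.1% in DU145 against LNCAP, and 18.5% and 19.3% in PC3 against DU145. Their median absolute log2 ratios were 1.80, 1.35 and 1.31 in these comparisons, where the network members had 1.04, 0.69 and 0.33 and all tested genes 0.96, 0.94 and 0.78.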
